A study of Mus musculus with 16 samples.

Results

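The comparison described here is the response of mouse embryonic stem cells supplied with CTCF carrying the Q418R substitution to 3 days without leukemia inhibitory factor (LIF). It was read from the authors' normalised counts in the 4 libraries of that line, 2 with LIF and 2 without. A gene was included when its normalised counts in these libraries averaged 10 or more. These were 17838 of the 55291 genes in the table. Of them 11745 had a mean of at least 100 and 5169 a mean of at least 1000. The mean closest to the minimum was 10.0002 among the genes kept and 9.99975 among those left out, and 32846 genes had a value above 0 in any of the 4 libraries.

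All cells were E14Tg2a, a feeder-free embryonic stem cell line of strain 129/Ola, in which endogenous CTCF carries a degron, a tag through which auxin triggers destruction of the protein. A transgene switched on by doxycycline supplied CTCF in its place, either wild-type (WT) or with R342C, K365T or Q418R, each a single amino acid substitution in the zinc-finger domain that binds DNA. Auxin (indole-3-acetic acid, 500 µM) and doxycycline (1 µg/ml) were given to every culture, for 2 days according to the labels, so the controls carry the degron and both agents as well, and no untreated cells were analysed here. The LIF medium held serum, LIF, 3 µM CHIR99021, which inhibits GSK3, and 1 µM PD0325901, which inhibits MEK, whereas the other medium lacked all 3 additions for 3 days. "Without LIF" therefore stands for the joint removal of the cytokine and both inhibitors, whose separate effects cannot be told apart. Each genotype is 1 line, so genotype and line cannot be told apart either. By the labels the 2 days with auxin and doxycycline were fewer than the 3 days without LIF. The transgene may thus not have acted for all of those 3 days. Each of the 8 groups has 2 libraries. The labels do not say that these came from separate cultures, and p-values measure only the spread between libraries.

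Total RNA without ribosomal RNA was sequenced as 150 bp pairs from 500 ng per sample. The Q418R libraries held 20148246 to 24519291 recovered reads, against 19721363 to 31935381 over all 16. The first principal component of the 4 Q418R libraries, with 91.2% of their variance, separated the media, and the second, with 5.74%, separated replicate 1 from replicate 2. Among the 16, replicate 2 of WT without LIF stood apart, with 10.8% of its counts in its 10 most abundant genes against 5.98% in the lowest library. Ctcf had normalised counts of 8375 and 7369 with LIF and 8406 and 6241 without, a log2 difference of -0.12 ± 0.15 (adjusted p = 0.555). The media overlapped, and the reads do not separate the transgene from the endogenous gene, so this checks neither the degron nor the substitution.

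As background, LIF acts through the receptor LIFR and its partner gp130 to activate the transcription factor STAT3, which sustains the naive state of embryonic stem cells together with the 2 inhibitors. Inhibition of GSK3 stabilises beta-catenin, a partner of TCF and LEF factors, and inhibition of MEK blocks the FGF and ERK signal that drives cells out of that state. Once the 3 are removed, stem cells shut down naive genes and pass to a formative state, from which germ layers and germ cells arise. CTCF binds DNA and, with cohesin, shapes chromosome loops between promoters and enhancers.

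The DNA before the start of 5 genes is shown here because these genes are among the largest changes described below and their windows hold letters known for the factors just named. Each window is the 250 bases before a transcription start, 5' to 3', from RefSeq (GRCm38.p6), with motif matches in capitals. The motifs searched on both strands were TTCCNGGAA (STAT), ATCAAAG (TCF/LEF), TCAAGGTCA (ESRRB and NR5A2) and a core of the CTCF motif. Among all 32851 windows of this length in the table, 0.913% held the first, 3.21% the second, 0.387% the third and 2.07% the fourth. Crxos (chr7:15901396-15901645, + strand, 1 of its 3 starts) and Sp5 (chr2:70474673-70474922, + strand) fell, and so did Bhmt (chr13:93637759-93638008, - strand). Cxcl12 (chr6:117168285-117168534, + strand) and Cubn (chr2:13491877-13492126, - strand) rose.
Crxos: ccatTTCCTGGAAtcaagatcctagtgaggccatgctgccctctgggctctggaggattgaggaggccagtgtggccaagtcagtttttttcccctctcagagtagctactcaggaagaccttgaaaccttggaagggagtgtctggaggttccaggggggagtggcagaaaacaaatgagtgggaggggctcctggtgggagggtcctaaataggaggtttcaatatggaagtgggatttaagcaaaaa
Sp5: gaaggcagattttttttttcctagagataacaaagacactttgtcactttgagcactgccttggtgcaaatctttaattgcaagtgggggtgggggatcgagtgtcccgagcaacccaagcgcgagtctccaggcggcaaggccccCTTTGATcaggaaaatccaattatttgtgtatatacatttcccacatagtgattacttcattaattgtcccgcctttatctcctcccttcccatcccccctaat
Bhmt: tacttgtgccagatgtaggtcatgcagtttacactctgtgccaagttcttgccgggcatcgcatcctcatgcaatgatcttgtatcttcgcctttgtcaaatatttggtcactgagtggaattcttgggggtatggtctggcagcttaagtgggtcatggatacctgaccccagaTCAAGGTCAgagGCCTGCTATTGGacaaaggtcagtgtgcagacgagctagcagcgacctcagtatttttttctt
Cxcl12: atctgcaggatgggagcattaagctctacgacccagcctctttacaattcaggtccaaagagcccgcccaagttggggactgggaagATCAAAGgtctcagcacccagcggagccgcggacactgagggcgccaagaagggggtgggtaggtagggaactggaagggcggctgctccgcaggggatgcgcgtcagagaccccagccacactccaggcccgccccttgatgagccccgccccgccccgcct
Cubn: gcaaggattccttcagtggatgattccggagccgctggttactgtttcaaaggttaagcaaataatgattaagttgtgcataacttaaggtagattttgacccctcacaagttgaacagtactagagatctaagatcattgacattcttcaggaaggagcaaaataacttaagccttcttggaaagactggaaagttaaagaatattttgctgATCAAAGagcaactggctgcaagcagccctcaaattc
The STAT letters of Crxos lay 246 to 238 bases before the start. Sp5 held the TCF/LEF motif on the opposite strand (CTTTGAT) at 104 to 98 bases. Cxcl12 and Cubn held it on the strand shown, at 163 to 157 and 37 to 31 bases. Bhmt held TCAAGGTCA at 75 to 67 bases and, next to it on the opposite strand, the CTCF core GCCTGCTATTGG at 63 to 52. A match describes the letters in the window and does not show that a factor binds there. Only 11999 of the 17838 genes (67.3%) have a window in the table, and shares of windows are therefore not compared between genes that rose and fell.

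The response was tested with limma on log2(normalised count + 4), adjusted by the Benjamini-Hochberg method over all 17838 genes, and a gene was called at an adjusted p under 0.05. Values after ± are standard errors of the log2 difference, without minus with LIF. The spread behind them and the p-values was shared over all 8 groups, so it does not describe the Q418R libraries alone. Of the 17838 genes, 8333 were called (46.7%), of which 4158 rose (23.3% of all genes) and 4175 fell (23.4%). Counts called in the gene lists below are to be read against these shares. The rises were the larger ones. The median log2 difference was 1.43 among genes that rose and -1.08 among those that fell, and 2835 rises (15.9%) against 2242 falls (12.6%) reached at least 2-fold. At the far end, 53 genes rose and 54 fell by at least 5 on the log2 scale. Summed over called genes, 2447870 normalised counts were gained by those that rose, and the sum over those that fell was -3608200. The median over all genes was -0.01. The libraries of the 2 media did not overlap for 13234 genes (74.2%). In the authors' TPM values, values scaled for gene length and depth, 60.9% of the called genes were higher, against 49.9% here, and the median of all genes was 0.14 on that scale.

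The largest rise was that of Car4, a membrane-bound carbonic anhydrase. It had 1 recovered read in the 2 libraries with LIF and 3787 without, a ratio of 3691 (95% exact interval 662 to 145842, counting error only). Cxcl12, a chemokine that guides migrating cells, had 2.38 and 4.98 normalised counts with LIF and 868 and 869.9 without (6.85 ± 0.35, adjusted p = 3.07e-09). Both genes went from near absence to high counts in both libraries. Lefty1, a secreted Nodal inhibitor, went from 41.7 and 23.9 to 7206 and 5584, and Car14, another carbonic anhydrase, from 1.19 and 2.99 to 841 and 848. Fndc3c1 (6.54 ± 0.39) and the transcription factor gene Bcl11a (6.15 ± 0.45) were in the same class.

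The largest fitted fall was that of Crxos, a homeobox gene of early embryos, with 2924 and 2937 normalised counts with LIF and 12.1 and 2.04 without (-8.22 ± 0.35, adjusted p = 8.02e-10). Aox3, an aldehyde oxidase, had 3019 and 3893 with LIF and 11 and 8.15 without (-7.99 ± 0.36, adjusted p = 1.39e-09). Bhmt, which uses betaine to remethylate homocysteine, had 2502 reads with LIF and 1 without, a ratio of 2567 (exact interval 460 to 101422). No library without LIF reached the lowest library with LIF for any of them. Trpm1, an ion channel gene, fell from 4562 and 6655 to 8.79 and 39.7, and Ly6a, a surface antigen, from 1570 and 1374 to 7.69 and 2.04. Protease inhibitor genes of the serpin B family were in this class, namely Serpinb6c (-6.82 ± 0.28) and Serpinb1a, which had 1484 reads with LIF and 2 without, a ratio of 761 (exact interval 210.4 to 6291).

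By count, the largest gains were those of Malat1, an abundant nuclear RNA (139379 and 155739 with LIF, 264348 and 268073 without), and Pkm, a glycolytic enzyme (21869 and 21795 with LIF and 47048 and 46733 without). Their log2 differences were 0.85 ± 0.16 and 1.1 ± 0.14, and the replicates of a medium lay close together. Gja1, a gap junction protein, rose from 1676 and 1782 to 22891 and 23081. Rlim, an X-linked ubiquitin ligase, rose from 6883 and 5240 to 22932 and 20902. The largest loss was that of Fn1, the matrix protein fibronectin, from 72578 and 74884 to 11161 and 10737, followed by Tfcp2l1. Asns, which makes asparagine, fell from 29061 and 27693 to 4714 and 4670, Bcat1, which transfers amino groups of branched-chain amino acids, from 29744 and 30730 to 7902 and 8384, and Ahnak, a large scaffold protein, from 24810 and 20504 to 1602 and 1465.

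The naive pluripotency genes fell almost as a block. Of 23 tested, 20 fell (87.0%), none rose and 3 were not called, with a median of -2.99. Tfcp2l1, a transcription factor downstream of LIF, had 45566 and 48296 normalised counts with LIF and 913 and 909 without (-5.68 ± 0.30, adjusted p = 3.88e-09). Nanog had 17905 and 17701 with LIF and 1323 and 1022 without (-3.93 ± 0.21, adjusted p = 3.88e-09), or 976 TPM with LIF and 71.2 TPM without. Prdm14, a repressor that protects the naive state, had 771 and 718 with LIF and 24.2 and 8.15 without (-5.34 ± 0.50, adjusted p = 8.9e-07). The media did not overlap for any of the 3, and only for Prdm14 did the libraries without LIF differ much from each other. Jam2, a junction adhesion molecule, fell from 10970 and 10980 to 173 and 172, and Esrrb, an orphan nuclear receptor, from 16527 and 17840 to 2365 and 2217. Klf4 and Klf2, Krüppel-like factors, fell too, but their libraries without LIF differed, at 1236 and 386 for Klf4 (-4.17 ± 0.71) and 2810 and 1343 for Klf2 (-1.8 ± 0.38), in each case with replicate 1 the higher. Dppa2 and Dppa4, chromatin factors listed with the naive genes, were not called. Dppa2 stood at 1220 and 1119 with LIF and 941 and 715 without (adjusted p = 0.115, but 0.00348 with replicate number as a block), and Dppa4 at 705 and 779 with LIF and 905 and 766 without (adjusted p = 0.423).

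As a list, genes shared between pluripotent states rose and fell about as often as all genes did. Of 15, 3 rose, 4 fell and 8 were not called (median -0.06, which turned to 0.03 under upper-quartile scaling and 0.09 in TPM). These shares were close to the 23.3% that rose and the 23.4% that fell over all genes. Pou5f1, which encodes OCT4, had 12497 and 11533 with LIF and 7459 and 5082 without (-0.96 ± 0.16, adjusted p = 0.000192), and Sox2, its partner, had 10307 and 11530 with LIF and 5909 and 5020 without (-1.0 ± 0.15, adjusted p = 9.02e-05). Both were lower in every library without LIF but remained well expressed, with mean levels of 379 TPM for Pou5f1 and 362 TPM for Sox2. Tdgf1, the Nodal co-receptor CRIPTO, fell further, from 9418 and 11966 to 2200 and 1769. Lin28a, which blocks let-7 maturation, rose from 869 and 943 to 15815 and 14562 (4.06 ± 0.30), and Utf1, a chromatin factor, from 429 and 305 to 4578 and 5545 (3.79 ± 0.24). Sall4, Rif1 and Trim71 were among the members not called, with log2 differences of -0.27, -0.14 and 0.23.

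The formative and primed genes moved the opposite way. Of 19 listed, 18 were tested, 17 rose (94.4%) and none fell, with a median of 3.27. Otx2, a homeobox factor of the formative state, had 23.8 and 27.9 with LIF and 1176 and 1381 without (5.42 ± 0.31, adjusted p = 8.58e-09). Pou3f1, which encodes OCT6, had 26.2 and 52.8 with LIF and 1782 and 1597 without (5.35 ± 0.41, adjusted p = 1.22e-07). Fgf5, a ligand that marks the epiblast, had 1.19 and 2.99 with LIF and 145 and 148 without (4.64 ± 0.59, adjusted p = 1.53e-05). For each of the 3 the libraries without LIF lay close together and did not overlap those with LIF. Sox3 rose from 14.3 and 12.9 to 303 and 293, Sall2 from 85.8 and 165 to 2079 and 2073 and Lin28b from 142 and 112 to 1488 and 1419. The 1 member not called was Lef1, at 493 and 338 with LIF and 1366 and 723 without (adjusted p = 0.0619, but 0.0281 with replicate number as a block).

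**Figure D1:**
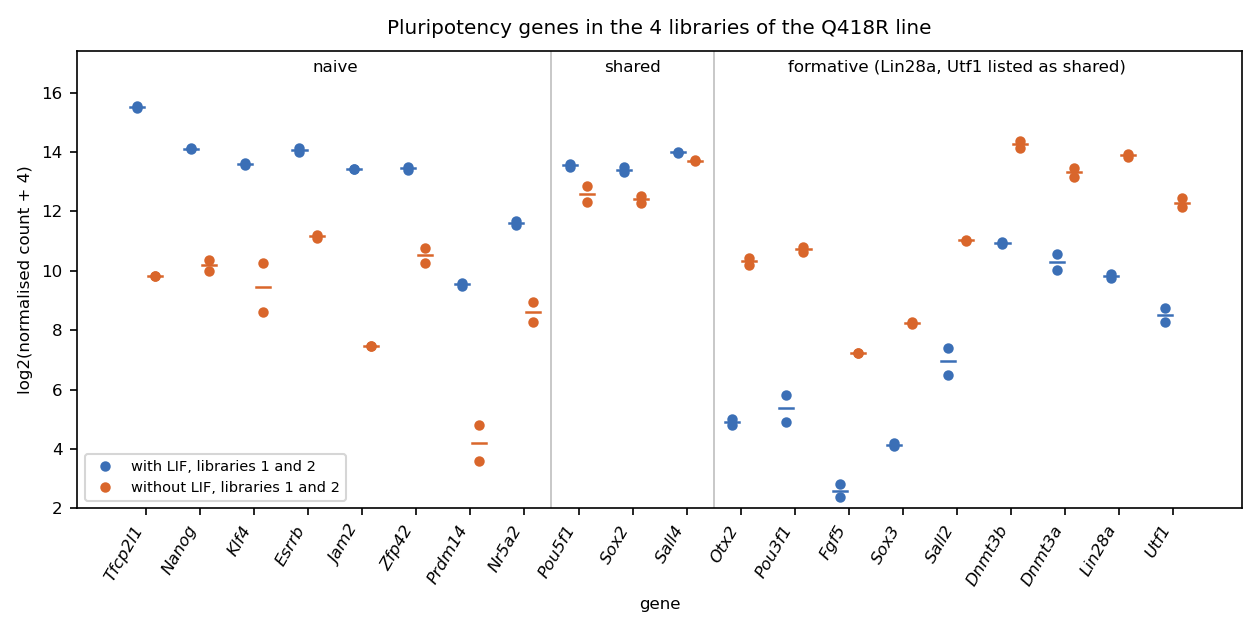
Values of 20 pluripotency genes in each Q418R library as log2(normalised count + 4), with LIF (blue) and without (orange). Each point is 1 library and each bar the mean of 2. The 8 naive genes and the 9 genes on the right do not overlap between media and move in opposite directions, whereas Sall4 changes little.

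Genes of the LIF and STAT3 branch fell. Of 18, 12 fell (66.7%), 1 rose and 5 were not called, with a median of -1.64, and the block gave 13 falls and 3 rises. Socs3, a feedback inhibitor induced by STAT3, had 3979 and 3521 normalised counts with LIF and 239 and 205 without (-4.06 ± 0.32, adjusted p = 1.75e-07). It was low in both libraries without LIF, with little spread. Pramel6 and Pramel7 had 623 and 292 reads with LIF and 0 in both libraries without, at least 213-fold and 99.9-fold lower when 3 reads, summed over both libraries, are taken as the floor. Socs2, another member of the SOCS family, rose instead, from 895 and 694 to 3003 and 2596 (1.82 ± 0.18). The transcripts of Stat3 (4365 and 4176 with LIF and 1297 and 1168 without, -1.79 ± 0.23) and of the receptor gene Lifr (4226 and 5055 with LIF and 1665 and 1606 without, -1.5 ± 0.21) fell as well, and both were chosen for naming after their values were seen. Pim1, a kinase gene, was not called at -0.46 (adjusted p = 0.0697, but 0.00324 with the block).

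FGF ligands and receptors changed in both directions. Of 14 tested, 7 rose, 3 fell and 4 were not called. Fgf4, the main FGF of naive cells, had 3199 and 3639 with LIF and 663 and 674 without (-2.34 ± 0.30, adjusted p = 1.84e-05), and Fgf10 fell from 144 and 198 to 28.6 and 24.4. Both lost most of their counts, whereas Fgf5 (above), Fgf15 (22.6 and 32.9 with LIF and 158 and 157 without) and Fgf13 (13.1 and 11 with LIF and 154 and 194 without), whose product stays inside the cell, gained. Among the receptors Fgfr2 had 63.1 and 55.8 with LIF and 1539 and 1372 without (4.52 ± 0.25, adjusted p = 6.98e-09), and Fgfr3 rose by 2.09 ± 0.34. Fgfr1 was not called, at 3752 and 3764 with LIF and 4454 and 4146 without (adjusted p = 0.257). Of 21 targets and feedback inhibitors of MEK and ERK, 10 rose (47.6%) and 2 fell, and 15 rose with replicate number as a block. Dusp4 and Dusp6, phosphatases that dampen ERK and its relatives, rose from 181 and 150.3 to 3243 and 2803 (4.16 ± 0.36) and from 368 and 347 to 2913 and 2219 (2.82 ± 0.22). Spry4, an inhibitor of receptor signalling, rose from 247 and 77.7 to 2141 and 1916. Its relative Spry2 and the ETS factor gene Etv5 fell (-1.62 ± 0.24 and -1.14 ± 0.16). Immediate early genes varied between replicates. Fos had 991 and 249 with LIF and 3215 and 746 without, with replicate 1 above replicate 2 in both media (adjusted p = 0.125, but 0.0187 with the block), and Egr1 had 1898 and 463 with LIF and 2043 and 1510 without (adjusted p = 0.523).

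Wnt ligands and beta-catenin targets, taken as 1 list, did not move as 1 group. Of 21 listed, 20 were tested, 5 rose and 7 fell (median 0.13, and 8 and 8 with the block), but the falls included some of the largest in the data. Cdx1, a homeobox factor of the posterior axis, had 2915 and 2514 with LIF and 20.9 and 7.13 without (-7.35 ± 0.57, adjusted p = 1.27e-07). Sp5, a direct transcriptional target of Wnt, had 1885 and 1544 with LIF and 11 and 5.09 without (-7.19 ± 0.72, adjusted p = 1.53e-06), and Dkk1, a secreted Wnt inhibitor, had 649 and 684 with LIF and 15.4 and 5.09 without (-5.66 ± 0.50, adjusted p = 4.43e-07). All 3 were left with few counts in both libraries. Axin2, the common reporter of the pathway, kept more of its signal, at 4083 and 3665 with LIF and 1282 and 1435 without (-1.51 ± 0.27), and Notum and Apcdd1, further inhibitors, fell (-2.69 ± 0.35 and -3.34 ± 0.14). Among members that rose were the inhibitor genes Nkd1 (1.33 ± 0.23) and Nkd2 (2.32 ± 0.34) and Ccnd1, a G1 cyclin (1.27 ± 0.31). Lgr5, a receptor for R-spondins, had 1 read with LIF and 76 without, a ratio of 74.1 (exact interval 12.9 to 2964).

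In the Nodal and activin pathway, 7 of 20 tested genes rose and 6 fell (23 were listed). The Nodal ligand itself was not called, at 844 and 881 with LIF and 1209 and 1014 without (adjusted p = 0.509), and the effector Smad2 stood at 2401 and 2369 with LIF and 2403 and 2114 without (adjusted p = 0.544). The Nodal inhibitor gene Lefty1 had 41.7 and 23.9 with LIF and 7206 and 5584 without (7.47 ± 0.54, adjusted p = 6.55e-08), and its paralog Lefty2 rose by 3.37 ± 0.49. Each was higher in both libraries without LIF. Foxh1, the DNA-binding partner of the SMADs, rose from 639 and 704 to 1388 and 1732 and Skil, a SMAD repressor, from 2148 and 2357 to 15290 and 13228. Pcsk6, a protease that activates Nodal, fell from 2218 and 2738 to 241 and 225, Smad7, an inhibitor, from 8011 and 8036 to 1817 and 1455 and Gdf3, a related ligand, from 3099 and 3227 to 1293 and 1133.

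In the BMP pathway 8 of 19 genes rose and 4 fell. The ID genes, inhibitors of bHLH factors and common BMP targets, differed among themselves. Id1 had 65.5 and 27.9 with LIF and 2464 and 1530 without (5.37 ± 0.39, adjusted p = 6.95e-08), Id2 rose by 3.43 ± 0.29 and Id3 by 2.03 ± 0.49. Both libraries without LIF lay above both with LIF for these 3, with replicate 1 the higher. Id4 fell instead, from 517 and 549.6 to 307 and 274 (-0.87 ± 0.26), a call lost without replicate 2 with LIF or replicate 2 without LIF (adjusted p = 0.0699 and 0.0764 by limma). The ligand genes Bmp4 (313 and 159 with LIF and 67.1 and 54 without, -1.83 ± 0.30) and Bmp2 (-1.61 ± 0.42) fell. Bmpr1b, a receptor gene, had 0 reads with LIF and 63 without, at least 20.47-fold higher. Of 12 tested Notch pathway genes, 8 rose (66.7%) and 3 fell. The ligand gene Dll1 had 73.9 and 81.6 with LIF and 1677 and 691 without (3.73 ± 0.57, adjusted p = 8.85e-05), Jag2 rose by 1.76 ± 0.22, the modifier Lfng by 2.21 ± 0.37 and the receptor gene Notch3 by 1.33 ± 0.26. Notch4 (-2.15 ± 0.45) and the target Hes1 (-1.2 ± 0.22) fell.

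Enzymes that add and remove DNA methylation changed in both directions. Of 13 genes, 5 rose and 5 fell. Dnmt3b, a de novo methyltransferase, had 1989 and 1893 with LIF and 21462 and 18023 without (3.34 ± 0.27, adjusted p = 2.35e-07), and Dnmt3a had 1040 and 1515 with LIF and 11371 and 9114 without (3.02 ± 0.15, adjusted p = 2.49e-09). Their cofactor Dnmt3l rose by 2.21 ± 0.33. Per length, Dnmt3b went from 46.7 to 527 TPM and Dnmt3a from 9.46 to 83.8 TPM, so Dnmt3b was the more abundant in both media. Tet2, which oxidises 5-methylcytosine, had 11251 and 9194 with LIF and 1061 and 786 without (-3.47 ± 0.18, adjusted p = 2.9e-09), and Tet1 fell (-0.79 ± 0.12). Tet2 went from 74.4 to 7.45 TPM while Tet1 went from 98.1 to 63.2 TPM. Tet3, of the same family, rose from 1479 and 1490 to 2523 and 2575 (0.78 ± 0.13), and Tdg, a glycosylase that removes oxidised methylcytosine, from 671 and 653 to 1310 and 1020 (0.8 ± 0.14). The maintenance methyltransferase gene Dnmt1 fell slightly, from 8401 and 8630 to 6982 and 6350 (-0.35 ± 0.11), a call lost when either library with LIF or replicate 2 without LIF was left out (adjusted p = 0.0547, 0.0855 and 0.118 by limma) and in TPM. Zfp57, a zinc-finger factor that guards methylation at imprinted loci, fell from 11120 and 11506 to 1508 and 1247, and Uhrf1, which recruits maintenance methylation, from 18416 and 19433 to 8840 and 8103.

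Among 22 Polycomb genes 10 fell (45.5%) and 4 rose. Upper-quartile scaling and the block each gave 7 rises and 10 falls. Cbx8, a reader subunit of the first Polycomb complex, fell (-2.3 ± 0.29), and so did Epop, an accessory subunit of the second (-1.72 ± 0.23), and Eed, a core subunit (-1.45 ± 0.16). Phf19, another accessory subunit, rose from 35.7 and 49.8 to 190.2 and 237 and Phc1 from 8067 and 8700 to 17988 and 16739. The methyltransferase gene Ezh2 was not called (-0.14, adjusted p = 0.366). Of 22 tested genes of CTCF, cohesin and their regulators, 6 rose (27.3%) and 4 fell (18.2%), against 23.3% and 23.4% over all genes. The other 12, Ctcf among them, were not called. Upper-quartile scaling gave 9 rises and 2 falls, and with TPM there were 7 rises and 1 fall. The 2 alternative STAG subunits of cohesin crossed. Stag1 had 5869 and 5769 with LIF and 3876 and 3969 without (-0.57 ± 0.11, adjusted p = 0.00072), and Stag2 had 3151 and 3207 with LIF and 7288 and 7426 without (1.21 ± 0.12, adjusted p = 1.25e-06). Per length, Stag1 went from 60.7 to 45.4 TPM and Stag2 from 47.2 to 121 TPM, so their order turned. The meiotic cohesin genes Rad21l (3.57 and 4.98 with LIF and 66 and 55 without, 2.96 ± 0.32) and Rec8 (0.98 ± 0.23) rose.

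Clustered gene families gave contrasting pictures. Of 39 Hox genes, which pattern the body axis, 21 reached the minimum and 18 of those fell (85.7%), with none rising and a median of -2.69. The median was -3.57 by edgeR and -3.66 by DESeq2. The other 18 stayed below the minimum, and since a gene could reach it through either medium, this share does not describe all Hox genes. Hoxb13 had 120.3 and 105 with LIF and 2.2 and 3.06 without (-4.13 ± 0.35, adjusted p = 3.34e-07), and Hoxb9 had 362 and 411 with LIF and 17.6 and 22.4 without (-4.03 ± 0.38, adjusted p = 8.56e-07). Hoxc12 had 277 reads with LIF and 2 without, a ratio of 142 (exact interval 39.0 to 1179), and Hoxc10 had 103 and 0, at least 35.2-fold lower. These 4 transcripts were present in both libraries with LIF and at or near 0, or low in the case of Hoxb9, in both without. The other 3 tested members were not called. In the protocadherin clusters, whose promoters are known CTCF sites, none of 22 beta genes and 1 of 13 alpha genes reached the minimum. That one, Pcdhac2, had 2 reads with LIF and 67 without, a ratio of 32.7 (exact interval 8.69 to 275). Of 19 gamma genes 3 rose and 2 fell, and DESeq2 called none of the rises. Pcdhga12 fell from 106 and 99.6 to 38.5 and 35.7 (-1.38 ± 0.28, adjusted p = 0.00107).

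Imprinted genes, which are expressed from 1 parental copy, were mostly higher. Of 37 tested, 21 rose (56.8%) and 4 fell, with a median of 1.28. Peg10, derived from a retrotransposon, had 947 and 561 with LIF and 21648 and 15573 without (4.65 ± 0.38, adjusted p = 2.23e-07), and its neighbour Sgce had 16.7 and 14.9 with LIF and 243 and 245 without (3.65 ± 0.24, adjusted p = 2.99e-08). H19, a long noncoding RNA with a known CTCF-bound control region, had 1.19 and 2.99 with LIF and 94.5 and 127 without (4.24 ± 0.41, adjusted p = 1.19e-06). All 3 were far apart between media in both replicates. Its reciprocally imprinted neighbour Igf2 had 3 reads with LIF and 115 without, a ratio of 37.4 (exact interval 12.5 to 184). Cdkn1c, an inhibitor of cyclin-dependent kinases, rose by 3.5 ± 0.23 and Nnat by 3.78 ± 0.45. Plagl1, a zinc-finger factor, fell from 1921 and 2292 to 225 and 275 (-3.05 ± 0.19), and so did Dio3, which inactivates thyroid hormone (-2.5 ± 0.38). Igf2r and Ube3a were not called (0.23 and 0.18).

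Among 25 germline and meiosis genes 7 rose and 9 fell, and the TPM table gave 9 and 7. Dazl, an RNA-binding protein of germ cells, had 1712 and 1368 with LIF and 264 and 178 without (-2.8 ± 0.28, adjusted p = 1.37e-06), and Hormad1, a protein of the meiotic chromosome axis, fell (-2.58 ± 0.34). Taf7l, a testis form of a TFIID subunit, had 36.9 and 37.8 with LIF and 453 and 312 without (3.2 ± 0.32, adjusted p = 1.83e-06), and Sycp3, of the synaptonemal complex, had 318 and 462 with LIF and 1754 and 1945 without (2.26 ± 0.33, adjusted p = 5.75e-05). In each of these 4 genes the libraries of the 2 media did not overlap. Of 10 tested genes of the 2-cell-like state 5 rose and none fell. With replicate number as a block 8 rose, adding Zscan4d (adjusted p = 0.0342), Usp17le (0.0197) and Arg2 (0.0374). The 5 are all Zscan4 copies, near-identical genes between which reads can be shared, for instance Zscan4c at 14.3 and 11.9 with LIF and 68.2 and 42.8 without (1.77 ± 0.42, adjusted p = 0.00302).

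**Figure D2:**
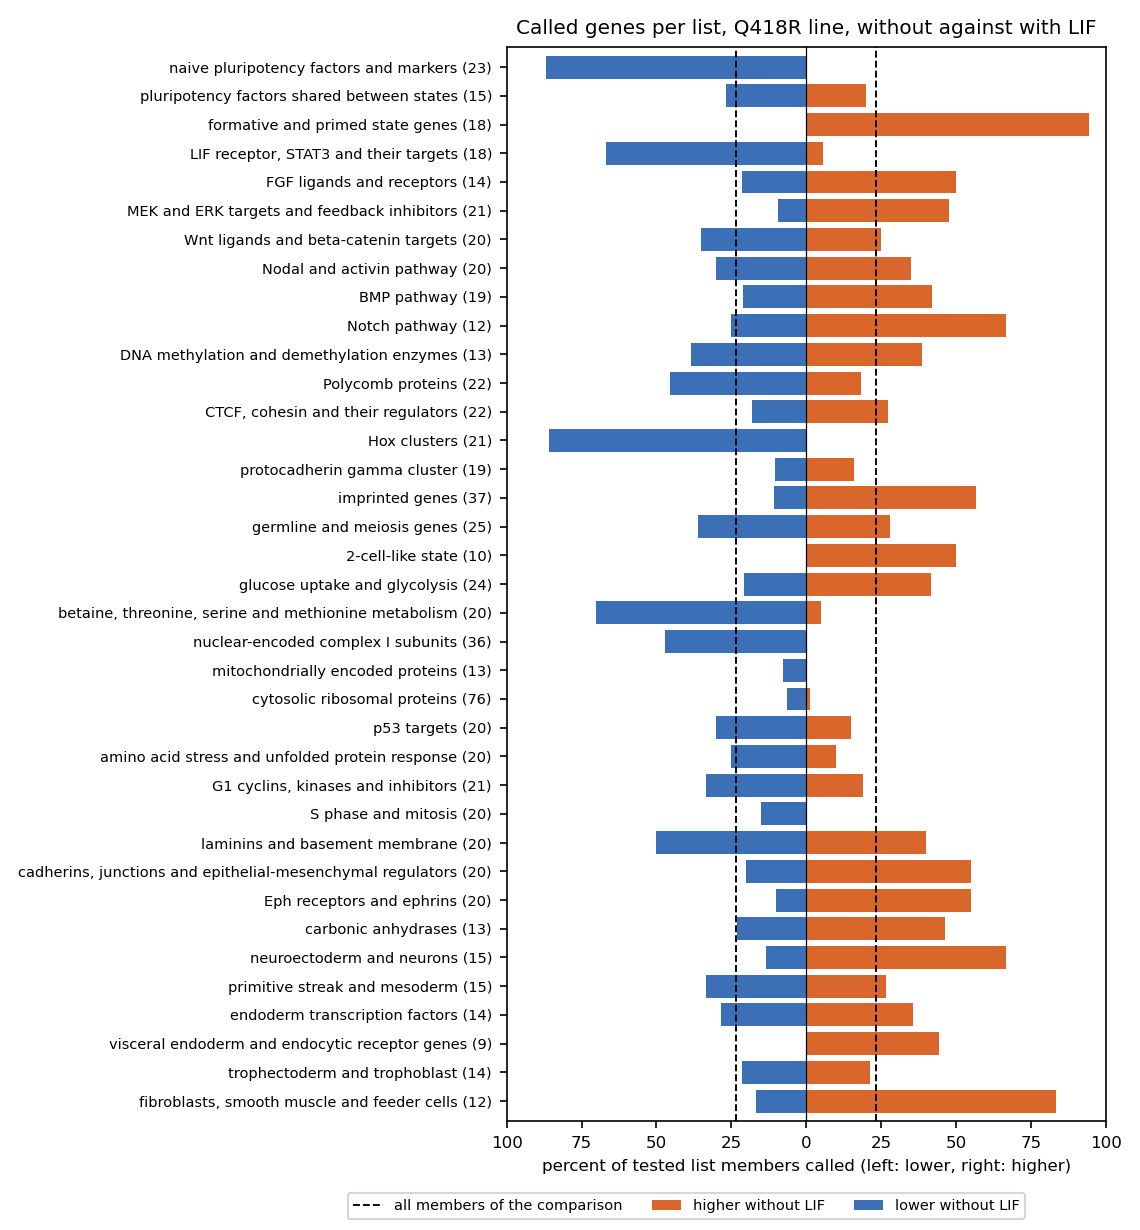
Percent of the tested members of each gene list (number in brackets) that were higher (orange, right) or lower (blue, left) without LIF in the Q418R line, with dashed lines at the shares over all 17838 genes, 23.3% and 23.4%. The naive genes (87.0% lower) and the formative genes (94.4% higher) lie farthest from the dashed lines, and ribosomal protein genes lie well inside them.

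Genes of glucose use changed in both directions. Of 24 genes 10 rose (41.7%) and 5 fell. The lactate exporter gene Slc16a3 had 100.1 and 130.4 with LIF and 2678 and 2373 without (4.42 ± 0.33, adjusted p = 8.95e-08), and Pdk1, a kinase that restrains pyruvate dehydrogenase, had 742 and 684 with LIF and 5475 and 4370 without (2.77 ± 0.21, adjusted p = 1.04e-07). The glucose transporter gene Slc2a1 rose from 1485 and 1443 to 6972 and 8426 (2.39 ± 0.13), from 51.3 to 300 TPM. By contrast the first enzymes fell, with Hk2 going from 14359 and 14836 to 5996 and 4753 (-1.45 ± 0.12) and Hk1 from 4825 and 5855 to 922 and 1338 (-2.25 ± 0.23). Pdha1, a subunit of pyruvate dehydrogenase, fell (-1.01 ± 0.11). Isozymes of phosphofructokinase went opposite ways, with Pfkp at 7843 and 10625 with LIF and 2108 and 2356 without and Pfkl at 1063 and 1222 with LIF and 3346 and 3487 without. Ldha was not called at 0.43 (adjusted p = 0.0639, but 0.0345 with the block).

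Genes of betaine, threonine, serine and methionine metabolism fell. Of 20 tested 14 fell (70.0%) and 1 rose (2 with the block), with a median of -0.77. The betaine and dimethylglycine steps went furthest. Besides Bhmt, its paralog Bhmt2 had 392 and 441 with LIF and 5.5 and 6.11 without (-5.42 ± 0.24, adjusted p = 1.12e-09), and Dmgdh, dimethylglycine dehydrogenase, had 1219 and 1192 with LIF and 14.3 and 11.2 without (-6.18 ± 0.31, adjusted p = 2.54e-09). Tdh, threonine dehydrogenase, a known marker of mouse naive cells, fell from 10025 and 9239 to 1492 and 1020 (-2.96 ± 0.29). The 1 gene that rose was Gldc, of the glycine cleavage system, from 4771 and 5667 to 11371 and 11640 (1.15 ± 0.17, adjusted p = 7.84e-05). Of 36 nuclear-encoded subunits of respiratory complex I 17 fell (47.2%) and none rose, but by little. The median was -0.34, and upper-quartile scaling gave 12 falls, and with TPM there were 9 and a median of -0.19. Ndufb4 fell most, from 1027 and 1088 to 454 and 501 (-1.14 ± 0.14). Of 13 mitochondrially encoded genes 1, mt-Nd2, fell (-0.44 ± 0.16, adjusted p = 0.0342). That call was lost when either library with LIF or replicate 1 without LIF was left out (adjusted p = 0.143, 0.0838 and 0.258 by limma), in the TPM table and under upper-quartile scaling. Other settings called more of the 13, with 3 falls by edgeR and by DESeq2 and 4 with the block, mt-Nd1 (adjusted p = 0.0163) and mt-Cytb (0.0465) among them. Of 76 cytosolic ribosomal protein genes 70 were not called, 1 rose and 5 fell (median -0.11, or 0.04 in TPM, with 14 falls under the block). Of 14 housekeeping genes 1 rose (2 with the block) and 4 fell, with a median of 0.11.

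Most genes of S phase and mitosis were not called. Of 20, none rose and 3 fell, with a median of -0.10 (0.05 in TPM, with 1 rise and 1 fall). The block gave 2 rises and 4 falls. Rrm2, a subunit of ribonucleotide reductase, had 4103 and 4195 with LIF and 1331 and 884 without (-1.93 ± 0.19, adjusted p = 1.49e-06). Mki67, the proliferation marker, stood at 12853 and 12383 with LIF and 13061 and 15384 without (adjusted p = 0.336) and Top2a at 23236 and 24058 with LIF and 23330 and 23249 without (adjusted p = 0.906). Top2a overlapped between media, and Mki67 was slightly higher in both libraries without LIF. Among 21 G1 regulators 4 rose and 7 fell, and the TPM table gave 4 and 4. D-type cyclins diverged. Ccnd2 rose from 105 and 125 to 921 and 572 (2.62 ± 0.47), Ccnd1 from 1256 and 888 to 3030 and 2156 (1.27 ± 0.31), and Ccnd3 fell from 3169 and 3178 to 1753 and 1837 (-0.82 ± 0.11). Of 20 p53 targets 3 rose and 6 fell. Cdkn1a, which encodes p21, fell from 4032 and 4321 to 1791 and 1387 (-1.4 ± 0.15), as did Gdf15 (-2.82 ± 0.49), whereas Pmaip1, which encodes the death factor NOXA, rose by 1.58 ± 0.31. Of 20 genes of amino acid stress and the unfolded protein response 5 fell (8 with the block) and 2 rose. The falls included Asns (-2.59 ± 0.18), Cth, which makes cysteine (-2.36 ± 0.20), and Atf5 (-1.93 ± 0.27), and the chaperone genes Hspa5 (-0.06) and Hsp90b1 (-0.06) were not called.

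Basement membrane genes nearly all changed, in both directions. Of 20 tested, 10 fell (50.0%) and 8 rose (40%). Laminin chains moved in opposite directions. Lama1 had 7132 and 7576 with LIF and 816 and 626 without (-3.35 ± 0.23, adjusted p = 4.71e-08), and Lamb1 had 449 and 492 with LIF and 5597 and 6734 without (3.7 ± 0.27, adjusted p = 6.73e-08). Per length, Lama1 went from 93.4 to 10.1 TPM and Lamb1 from 5.84 to 85.0 TPM, while Lamc1, the partner of both, went from 312 to 115 TPM. Nid1, the linker nidogen, fell from 14580 and 18629 to 651 and 928 (-4.4 ± 0.21), and Col4a1, a collagen IV chain, rose from 234 and 395 to 1330 and 1131 (2.0 ± 0.28). Of 20 junction and epithelial-mesenchymal genes 11 rose (55.0%) and 4 fell. Esrp1, an epithelial splicing regulator, had 76.3 and 68.7 with LIF and 2648 and 3021 without (5.21 ± 0.19, adjusted p = 2.49e-10), and the tight junction genes Cldn6 and Cldn7 rose by 2.95 ± 0.19 and 2.77 ± 0.30. E-cadherin (Cdh1) was not called, at 15801 and 17508 with LIF and 14052 and 13330 without (adjusted p = 0.0712), and N-cadherin (Cdh2) rose from 179.9 and 166 to 541 and 534 (1.61 ± 0.43). The repressor gene Zeb1 fell (-1.4 ± 0.25) and its paralog Zeb2 rose from 11.9 and 14.9 to 231 and 319 (3.99 ± 0.45).

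Eph receptors and ephrins, which mediate contact repulsion between cells, mostly rose. Of 20 tested 11 rose (55.0%) and 2 fell (4 with the block). Epha1 had 25 and 8.96 with LIF and 1200 and 867 without (5.72 ± 0.49, adjusted p = 3.64e-07), Epha8 had 17.9 and 11 with LIF and 476 and 605 without (4.9 ± 0.25, adjusted p = 2.79e-09), and the ligand gene Efnb2 rose by 3.2 ± 0.26. Epha4 did the reverse, at 10086 and 9253 with LIF and 527 and 400.3 without (-4.38 ± 0.19, adjusted p = 1.07e-09). Of 13 carbonic anhydrases, which hydrate carbon dioxide, 6 rose and 3 fell. Besides Car4 and Car14, Car3 rose from 47.7 and 29.9 to 485 and 317 (3.24 ± 0.33) and Car12 by 1.98 ± 0.33, and Car8 fell from 288 and 332 to 57.2 and 23.4 (-2.93 ± 0.41). In the Cxcl12 axis the ligand rose, as given above, while the scavenger receptor gene Ackr3 fell from 149 and 170.2 to 20.9 and 17.3 (-2.83 ± 0.41) and the signalling receptor gene Cxcr4 was not called, at 50 and 45.8 with LIF and 28.6 and 28.5 without (adjusted p = 0.0915).

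Markers of other lineages changed differently from list to list. In bulk RNA, a change in the number of cells of a type and a change in RNA per cell cannot be told apart. Of 15 tested neuroectoderm and neuron genes 10 rose and 2 fell, and their summed normalised count was 9659 and 9214 with LIF and 20265 and 25503 without. Kif1a, a vesicle motor, had 367 and 190.2 with LIF and 12294 and 17054 without (5.75 ± 0.27, adjusted p = 1.67e-09), Sox11, a factor of neural progenitors, had 60.8 and 51.8 with LIF and 2823 and 3352 without (5.68 ± 0.21, adjusted p = 3.29e-10), and Pax6 had 5.96 and 4.98 with LIF and 114 and 111 without (3.63 ± 0.43, adjusted p = 7.87e-06). Kif1a alone gained more counts than the sum did. The neuron marker Tubb3 was not called (944 and 594 with LIF and 676 and 616 without), and Stmn2 fell from 6020 and 5497 to 1156 and 1095 (-2.35 ± 0.22). Of 15 tested primitive streak and mesoderm genes 4 rose (26.7%) and 5 fell (33.3%), against 23.3% and 23.4% over all genes. Their sum was 1018 and 990 with LIF and 625 and 689 without. The streak factors T (101.3 and 63.7 with LIF and 39.6 and 35.7 without, adjusted p = 0.294) and Eomes (89.4 and 45.8 with LIF and 51.7 and 52 without, adjusted p = 0.636) were low and not called.

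Of 14 tested endoderm factors 5 rose and 4 fell, with a summed normalised count of 1423 and 1685 with LIF and 1163 and 1211 without. Gata4 had 147 and 183 with LIF and 326 and 413 without (1.14 ± 0.24, adjusted p = 0.00131), with both libraries without LIF above both with it. Sox17, a defining factor of endoderm, was low, between 12.9 and 39.7 in all 4 libraries, and was not called at 0.86 (adjusted p = 0.0555). Of 9 tested visceral endoderm and endocytic receptor genes 4 rose and none fell (5 and 1 with the block), and their sum was 9482 and 11838 with LIF and 25148 and 35954 without. Cubn, which encodes the uptake receptor cubilin, had 2.38 and 2.99 with LIF and 1007 and 384 without (6.55 ± 0.49, adjusted p = 9.01e-08), its partner Lrp2, megalin, had 907 and 809 with LIF and 11209 and 11486 without (3.72 ± 0.14, adjusted p = 4.18e-10), and the adaptor gene Dab2 had 105 and 60.7 with LIF and 955 and 1085 without (3.61 ± 0.38, adjusted p = 2.56e-06). Receptors and adaptor rose together, while the secreted markers Afp and Ttr stayed under 4 normalised counts in all 4 libraries. Of 14 tested trophectoderm genes 3 rose and 3 fell (21.4% each), close to the 23.3% and 23.4% over all genes. Their sum was 4551 and 5249 with LIF and 3995 and 4113 without. Tead4 fell from 1438 and 1705 to 70.3 and 109 (-4.1 ± 0.29), and Krt18, a keratin, rose by 1.92 ± 0.32.

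Of 12 tested fibroblast and smooth muscle genes 10 rose and 2 fell, with a median of 2.86, or 3.30 with the 1 member at 0 reads with LIF put at its bound. By edgeR and by DESeq2 9 rose, with medians of 4.13 and 4.15. The summed count of the listed genes did not rise, at 5568 and 5705 with LIF and 3900 and 4692 without. Tagln, an actin-binding protein of smooth muscle, had 16.7 and 8.96 with LIF and 503 and 592 without (5.07 ± 0.60, adjusted p = 8.07e-06), and Cnn1 and Acta2 rose by 5.28 ± 0.42 and 4.86 ± 0.58. The abundant members Vim (4482 and 4626 with LIF and 1495 and 1473 without) and Pdgfrb (778 and 848 with LIF and 79.1 and 102 without) fell. Of 17 listed genes 2 were at 0 in all 4 libraries. Among 7 tested endothelium and blood genes 4 rose and 2 fell, with a sum of 1250 and 1490 with LIF and 745 and 639 without and 3 of 13 listed genes at 0 in all 4 libraries. Examples were Cd34 at 3.57 and 6.97 with LIF and 128 and 115 without and Vwf at 989 and 1214 with LIF and 93.4 and 72.3 without. The part of other cell types in these values was not tested.

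By position, 17452 members (97.8%) have 1 location in GENCODE M21 (mm10), and of all chromosomes X had the highest share of genes that rose. Of its 588 members 206 rose (35%) and 120 fell (20.4%), with a median of 0.17, whereas 87 of 522 genes on chromosome 16 rose (16.7%) and 146 fell (28.0%), with a median of -0.13. On chromosome 3, 26.4% rose and 17.3% fell. These shares are descriptions, since genes are not replicates, and the median of the X chromosome in WT was 0.10. Of 107 annotated microRNA genes 41 rose and 3 fell (median 0.98). In a stranded total RNA library, reads at such a gene come from the precursor or the transcript around it, not from the mature microRNA. Of these members 29 lie within Sfmbt2 (chr2:10370510-10595253), an imprinted Polycomb gene, and 19 of them rose and none fell. Sfmbt2 rose with them, from 1860 and 2072 to 6517 and 5698 (1.63 ± 0.21). Another 27 lie between Meg3 and Mirg, noncoding RNAs of the imprinted Dlk1-Dio3 region (chr12:109541001-109749460), where 15 rose and none fell. Meg3 rose from 4050 and 4513 to 12995 and 13150 (1.61 ± 0.17) and Mir433, one of the 15, from 32.2 and 46.8 to 141 and 139 (1.74 ± 0.37). Of the 3 microRNA genes that fell, Mir211 lies inside Trpm1 and had 28.6 and 28.9 normalised counts with LIF and 0 in both libraries without, and Mir196a-1, next to Hoxb9, went from 51.2 and 62.7 to 5.5 and 5.09 (-2.71 ± 0.32). These microRNA genes, Sfmbt2 and Meg3 were named after their values were seen.

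**Figure D3:**
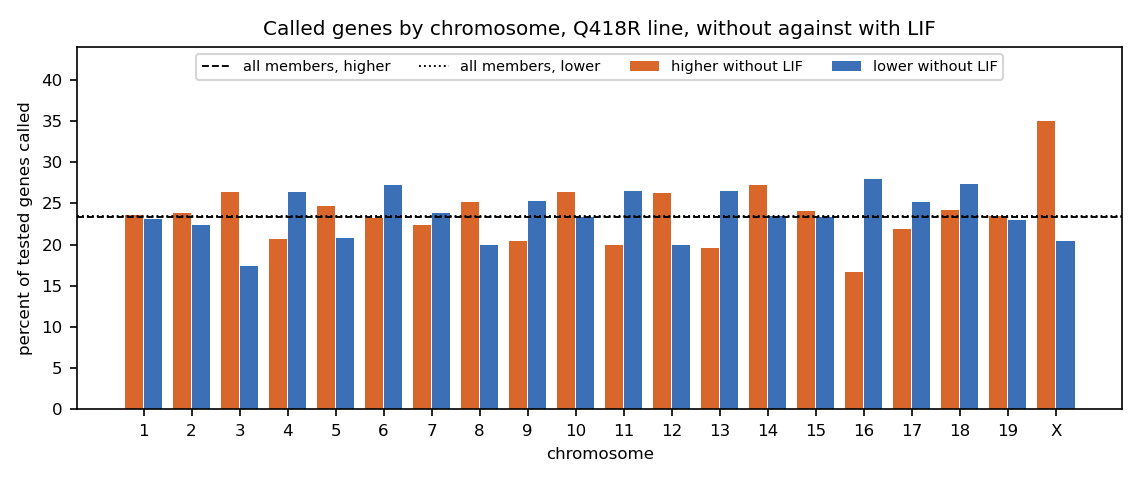
Percent of tested genes on each autosome and on X that were higher (orange) or lower (blue) without LIF in the Q418R line, with lines at the shares over all genes (23.3% and 23.4%). The X chromosome has the highest orange bar (35%) and chromosome 16 the lowest (16.7%).

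The response of the Q418R line was then set against that of WT by testing the difference between the 2 responses. Of 17838 genes 27 differed (0.151%), 16 with a higher (0.0897%) and 11 with a lower (0.0617%) value in Q418R, and 1520 had an unadjusted p under 0.05. The count changed when 1 library was left out, which leaves its group with 1 library, for a reason that was not tested. It was 0 when either Q418R library with LIF, Q418R without LIF replicate 1, WT with LIF replicate 2 or WT without LIF replicate 2 was left out, 1 without WT with LIF replicate 1, 6 without Q418R without LIF replicate 2, and 51 without WT without LIF replicate 1. With replicate number within each line as a block it was 156, with the 27 among them. In 18 of the 27 the change was smaller in size in Q418R than in WT, in 9 larger, and in 6 the signs were opposite. Of these 6, Abcc2 changed by -1.24 in Q418R and 1.70 in WT. In the others the response of 1 line was small. It was -0.11 for Zbtb16, -0.26 for Dpysl3 and 0.27 for Myl4 in WT. In Q418R it was 0.52 for Trp53i11 and 0.39 for Mecom, neither of them called. The same 2 sets of Q418R libraries enter the comparisons with R342C, where 14 genes differed (0.0785%, or 86 with the block), and with K365T, where 17 differed (0.0953%, or 159 with the block). Against R342C 11 were higher (0.0617%) and 3 lower (0.0168%), and against K365T 11 were higher (0.0617%) and 6 lower (0.0336%). Leaving out any 1 of the 8 libraries compared took the count against R342C to between 0 and 6, and leaving out any 1 but replicate 2 of K365T with LIF took that against K365T to between 4 and 8 or, without either K365T library lacking LIF, to 33 and 38. No gene differed from all 3 lines.

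**Figure D4:**
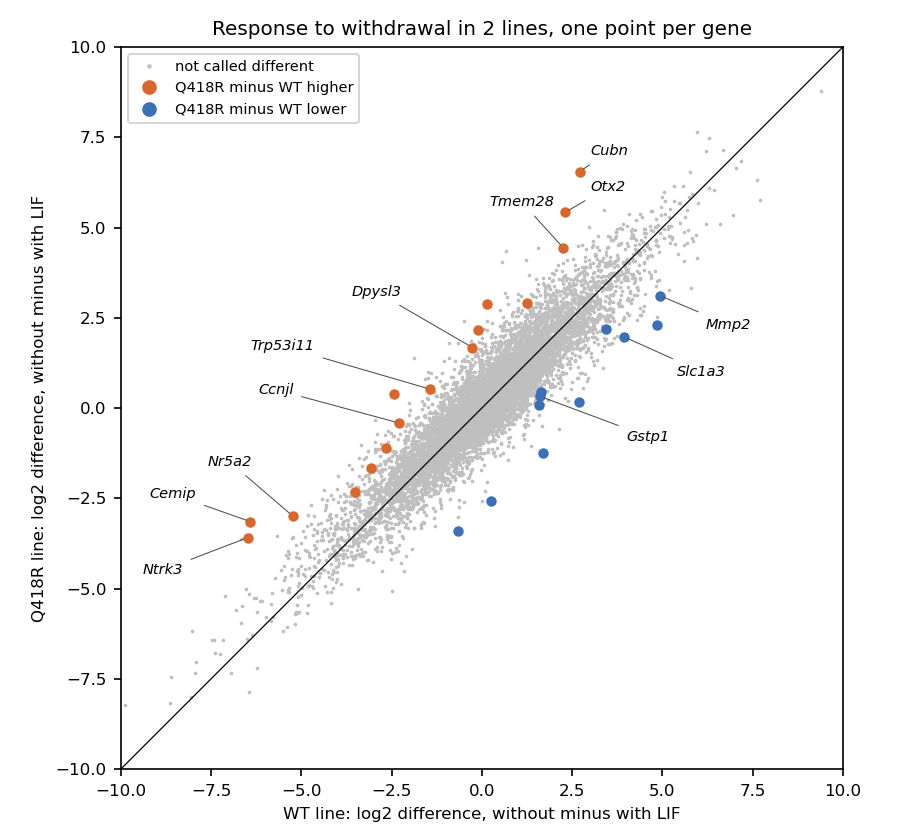
Log2 difference without minus with LIF in WT (horizontal) and in Q418R (vertical), one point per gene, with the 16 genes whose difference was higher in Q418R in orange and the 11 lower in blue. The line marks equal responses, and the coloured genes lie off it by more than 1 log2 unit.

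Regulators of pluripotency were among these genes. Otx2 (chr14:48657677-48673819) had 23.8 and 27.9 with LIF and 1176 and 1381 without in Q418R against 77.9 and 75.6 with LIF and 412 and 383 without in WT. Q418R libraries were thus the lower with LIF and the higher without, and the rise was larger by 3.11 ± 0.44 (adjusted p = 0.0391). R342C gave 85 and 68.9 with LIF and 308 and 328 without, a difference of 3.42 from Q418R (adjusted p = 0.0159), and K365T 85.1 and 31.8 with LIF and 1040 and 905 without, nearer to Q418R. Nr5a2 (chr1:136842571-136960448), a nuclear receptor of naive cells, had 3275 and 2970 with LIF and 496 and 305 without in Q418R and 3356 and 2941 with LIF and 89 and 70.7 without in WT. The lines were alike with LIF, and without it Q418R retained several times more, a difference of 2.25 ± 0.35 (adjusted p = 0.0395). The response of Nr5a2 in Q418R was not called different from that in R342C or K365T. Cubn (chr2:13276338-13491813) rose less in WT, from 4.67 and 2.16 to 33.5 and 57.2, a difference of 3.84 ± 0.69 (adjusted p = 0.0457), but its Q418R libraries without LIF were 1007 and 384. R342C (2.36 and 0.931 with LIF and 475 and 800.2 without) and K365T (3.32 and 1.03 with LIF and 146 and 339 without) lay nearer to Q418R than to WT for this gene.

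Other genes that differed from WT encode a transporter, enzymes and receptors. Slc1a3 (chr15:8634124-8710764), a glutamate transporter, had 346 and 356 with LIF and 1375 and 1407 without in Q418R and 139 and 85.4 with LIF and 1694 and 1744 without in WT (-1.96 ± 0.28, adjusted p = 0.0391). Here the lines differed mainly with LIF, where Q418R was the higher. Gstp1 (chr19:4035407-4037985), a glutathione transferase, had 1207 and 1083 with LIF and 1331 and 1543 without in Q418R, which was not called (adjusted p = 0.0609), against 1270 and 1044 with LIF and 3302 and 3743 without in WT (-1.28 ± 0.19, adjusted p = 0.0391). K365T gave 1173 and 1388 with LIF and 1671 and 1467 without, and R342C 917 and 927 with LIF and 3214 and 3227 without. Dpysl3, which acts on the cytoskeleton of growing axons, rose in Q418R from 209.7 and 238 to 673 and 776 and in WT stood at 440.0 and 422 with LIF and 352 and 366 without (1.94 ± 0.30, adjusted p = 0.0391). The receptor gene Ntrk3 (chr7:78175959-78738012) fell less in Q418R, from 228 and 217 to 15.4 and 14.3, than in WT, from 811 and 618 to 1.91 and 6.73 (2.89 ± 0.48, adjusted p = 0.0457). Mmp2 (chr8:92827291-92853420), a matrix protease, rose from 223 and 207 to 1729 and 2073 and in WT from 49.1 and 41.1 to 1369 and 1600 (-1.81 ± 0.31, adjusted p = 0.0457). For both genes the WT and Q418R libraries with LIF were already apart.

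The genes that differed from R342C shared 9 with those that differed from WT, among them Otx2, Slc1a3, Gstp1 and Ntrk3, 9 of 27 and 9 of 14. Those that differed from K365T shared 2 with WT, and none with R342C. All of these comparisons use the same Q418R libraries. Gad1 (chr2:70553072-70602014), which makes the transmitter GABA, had 778 and 615 with LIF and 29.7 and 23.4 without in Q418R against 18.8 and 39 with LIF and 44.3 and 31.9 without in K365T. It was high in Q418R with LIF and low in every other K365T and Q418R library, a difference of -4.93 ± 0.54 (adjusted p = 0.00318). WT gave 138 and 177 with LIF and 23.9 and 41.5 without, a difference of -2.35 from Q418R that was not called (adjusted p = 0.133, but 0.0349 with the block). Ephx2 (chr14:66084374-66124500), an epoxide hydrolase, had 2815 and 3962 with LIF and 1128 and 1297 without in Q418R and 313 and 438 with LIF and 1742 and 1029 without in K365T, a difference of -3.31 ± 0.37 (adjusted p = 0.00318). It was lower without LIF in both Q418R libraries and higher without LIF in both K365T libraries. Gad1 and Ephx2 were the only differences named here that stayed under the threshold in all 21 alternatives.

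**Figure D5:**
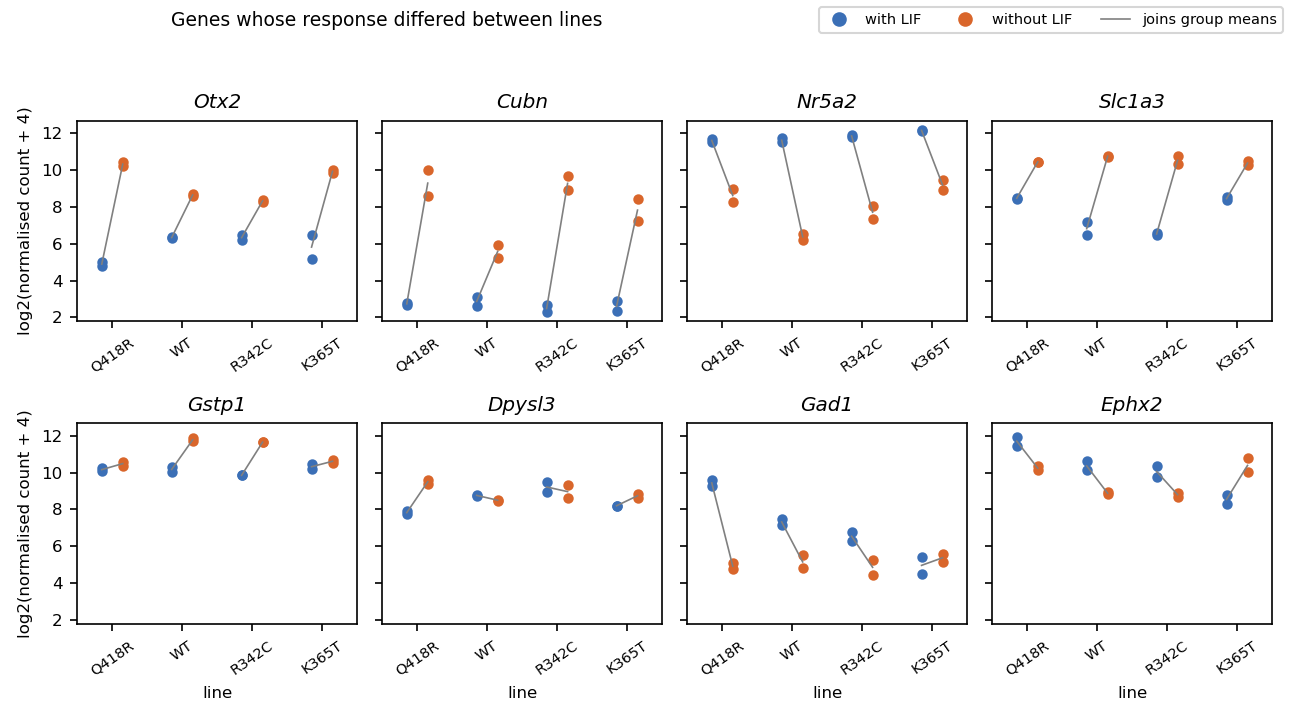
Values of 8 genes in all 16 libraries as log2(normalised count + 4), by line, with LIF (blue) and without (orange). Grey lines join group means, and their slopes differ between Q418R and WT for the first 6 genes and between Q418R and K365T for Gad1 and Ephx2.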

How the data were processed

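The authors deposited normalised counts and TPM per gene for 16 libraries. The deposited normalised counts (a signal scaled per library) are whole multiples of a step per library, with 100% of values whole within 0.05, so reads could be recovered. TPM values deposited by the authors served as an alternative, with 0.1 added. Per the submitters' processing notes the tools were Trim Galore, STAR and DESeq2 with mm10. Versions, the counting tool and the annotation are not given in the sources used here.

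Responses and their differences were fitted with limma 3.58.1 (R 4.3.3) on log2(normalised count + 4) over all 16 libraries, with 8 group means, 8 residual degrees of freedom and a mean-variance trend, after a test on simulated data. edgeR 4.0.16 and DESeq2 1.42.0 on recovered reads were alternatives, as were pseudocounts of 1 and 16, no filter, means of 10 over all libraries and 50, other scalings, only the lines compared, and each library left out. The main fit used no pairing. For the block within each line, replicate numbers were taken to pair the libraries of a line. Deviations of same-numbered libraries correlated at 0.363 to 0.420 over 11745 genes in each of 4 lines. Between lines these correlations reached a larger size but had no constant sign (-0.512 to 0.539), so a correlation alone does not mark a pair. Numbers were used as pairs between lines only in the block over all lines. The labels do not say what a number marks. Replicates differed by more than counting noise. Genes with at most 3 reads in a medium are given as exact ratios. Intervals and floors cover counting error only.

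The members and gene lists were chosen with earlier results of these data known. Named are Ctcf, a list of key genes, the 10 largest changes each way in log2 (mean of at least 100, no overlap) and in count, for each list up to 5 called members each way and 3 not called, and for each difference up to 10 each way. Some genes that the rule picks are not reported here. Other names are marked in the text.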

Additional observations from a re-analysis of the deposited data

Results flagged for a closer look

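The results below drew attention because the response to removal of LIF differed between the Q418R line and another line by limma's test of the difference itself. Each value is the log2 response of Q418R minus that of the other line. Against WT, the differences above 0 among genes picked by the naming rule were 3.84 for Cubn, 3.27 for Cemip, a hyaluronan-degrading protein, 3.11 for Otx2, 2.89 for Ntrk3, 2.29 for the zinc-finger factor gene Zbtb16 and 2.25 for Nr5a2. Further ones were 2.18 for Tmem28, 1.95 for Trp53i11, 1.94 for Dpysl3, 1.88 for Ccnjl, 1.67 for Greb1 and 1.16 for Mcf2, a guanine nucleotide exchange factor gene. Those below 0 were -1.96 for Slc1a3, -1.81 for Mmp2, -1.49 for Fam111a, -1.28 for Gstp1, -1.27 for Cgn, which encodes the tight junction protein cingulin, and -1.20 for Uchl1. The other 9 of the 27 genes fall outside that rule and include larger values. They were 2.83 for Mecom, 2.73 for Slc24a3, 1.55 for Zbtb39, 1.39 for Slc30a2, -2.93 for Abcc2, -2.84 for Myl4, -2.76 for Bpifb1, -2.55 for Dusp26 and -2.53 for Mx2. The larger ones had low mean counts in the Q418R libraries. These were 14.9 for Slc24a3, 16.4 for Mx2, 19.5 for Bpifb1 and 46.4 for Abcc2. Dusp26 had 60.7, Mecom 82.6 and Myl4 86.1, whereas Zbtb39 had 1265 and Slc30a2 1213.

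Against R342C, the values of genes picked by the rule were 3.42 for Otx2, 3.11 for Ntrk3, 2.56 for Zbtb16, 2.21 for Trp53i11, 2.12 for the guidance gene Slit2, 2.01 for Skida1, 1.93 for Dpysl3, 1.88 for Dpp6, 1.73 for Greb1 and 1.39 for Mcf2. Those below 0 were -1.48 for Gstp1 and -2.02 for Slc1a3. The 2 genes outside the rule had 3.44 (Scn3a) and a fitted -2.73 (Khdc1a, with 0 reads in Q418R without LIF). Their mean counts in the Q418R libraries were low, at 12.9 for Scn3a and 30.1 for Khdc1a.

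Against K365T, the values of such genes were 2.48 for Fbn2, a fibrillin gene, 2.44 for Grin1, a glutamate receptor gene, 2.37 for Gsta3, 2.33 for Ltbp1, 2.08 for Tmem28, 2.07 for Shroom4, 2.06 for Cobll1, 1.91 for Fmn1, 1.90 for Gpr161 and 1.57 for Ttc21b. Those below 0 were -4.93 for Gad1, -3.31 for Ephx2, -1.40 for Eppk1 and -1.18 for Dnah8. The 3 genes outside the rule had 0.95 (Atad2b), -2.51 (Myl4) and -2.95 (Tgm3). Their mean counts in the Q418R libraries were 3189, 86.1 and 25.8. Apart from Gad1 and Ephx2, every difference given here lost its call in at least 1 alternative, and none changed sign.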

How the results depend on the processing

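The number of genes called in the Q418R response moved from 6497 of 13386 tested, with a minimum mean of 50, to 9667 of 17838. The latter had replicate number within each line as a block. Without a filter 9580 of 37742 genes were called. Under every alternative run the number stayed within 1.5 times the count given in the report. Leaving out 1 Q418R library gave 6632 to 7201. Of 332 named genes called in the response 272 kept their call in every alternative, 60 lost it at least once and 0 changed sign. Of the calls, 49.9% were higher, against 60.9% in the TPM table and 56.3% under upper-quartile scaling, which shifted the median of all genes to 0.14 and 0.08.

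The counts of differences between lines were unstable, and the cause was not tested. For WT, 27 genes by limma became 0 without a filter, 9 under upper-quartile scaling, 0 in the TPM table, 9 with only the 2 lines fitted, 162 by DESeq2, 20 by edgeR, 156 with the replicate block within each line and 8 with the block over all lines. Leaving out 1 library gave 0 to 51. For R342C, 14 became 22 with a pseudocount of 16, 3 without a filter, 0 in the TPM table, 65 with only the 2 lines, 112 by DESeq2, 14 by edgeR and 86 with the block within each line. Leaving out 1 library gave 0 to 6. For K365T, 17 became 42 with a pseudocount of 16, 3 in the TPM table, 2 with only the 2 lines, 188 by DESeq2, 17 by edgeR and 159 with the block within each line. Leaving out 1 library gave 4 to 38. Where limma gave 0, 789 to 2868 genes had an unadjusted p under 0.05. The 27, 14 and 17 genes were all among those called with the block within each line. Beyond the values given in the report and that of Ccnjl, whose response was not called (adjusted p = 0.133) but was with the block (0.0477), it changed no response call of a gene named in the text.

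With 2 libraries a group, a group left with 1 is assumed to vary like the others. Low counts limit folds of genes with few reads in a medium, 369 of the 17838.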
